A study of Mus musculus with 12 samples.

Results

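Guanylate-binding proteins (GBPs) and immunity-related GTPases (IRGs) are the interferon-inducible GTPases with which cells attack microbes inside them. They were followed here through 10 genes chosen by symbol, the GBPs Gbp2, Gbp3, Gbp4, Gbp5 and Gbp7 and the IRGs Irgm1, Irgm2, Igtp, Iigp1 and Ifi47. The count files hold 26699 gene rows, and all 10 genes had a row. The filter on low counts kept 11927 genes for testing, and all 10 were among them.

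The samples were macrophages sorted from synovium of wild-type mice labelled C57BL/6 (C57BL/6J in the methods of the study), whose age in this experiment is not given in the sources used here. Synovium was incubated outside the body for 4 h in 100 nM calcitonin gene-related peptide (CGRP), a neuropeptide released by pain-sensing nerve fibres, or in vehicle as control. The control libraries are titled Healthy, and their 4 h in vehicle is taken from the methods of the study. After collagenase digestion, MHCII+CD11c- macrophages (labelled IAIE) and CD11c+MHCII+ mononuclear phagocytes (MNPs, labelled CD11c) were sorted for bulk RNA sequencing, with 3 libraries in each of the 4 groups of subset and treatment. The labels do not say whether the 3 libraries of a group came from separate animals, so p-values measure the spread between these libraries, which may be technical. No deletion or transgene was involved, and the cells were stimulated inside whole tissue, so that other synovial cells were present during the 4 h.

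GBPs are large dynamin-like GTPases that assemble on bacteria and on the membranes of pathogen-containing vacuoles, where they open the way to caspase-11 and inflammasome activation. IRGs divide into regulators that guard the cell's own membranes, here Irgm1, Irgm2 and Igtp, and effectors that load onto pathogen vacuoles and break them, here Iigp1 and Ifi47. Both families are kept low in resting macrophages and are induced by interferon-gamma at GAS elements and through IRF1, and by type I interferon at ISRE elements.

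The sequences through which interferons act on these genes were looked up first, because the 10 genes were followed as targets of 1 kind of signal. RefSeq promoters (GRCm38.p6, the build that mm10 names, 250 bases before to 50 after each start) matched 8 of the 10 genes in 9 entries, with none for Gbp4 and Iigp1. The ISRE core GAAANNGAAA, searched on both strands, was in 7 of the 9 entries (77.8%) and in 3.44% of all 32851 promoters. It was found for Gbp2, Gbp3, Gbp5, Gbp7, Irgm1, Igtp and Irgm2, and not in the windows of Ifi47 and of the second start of Gbp3. One 30-base stretch for each gene with a match is shown, 5′ to 3′ on the gene's strand, with capitals marking the ISRE core, which reads as its reverse complement in the GBPs.
Gbp2 (chr3:142620594-142620623, + strand): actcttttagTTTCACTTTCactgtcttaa
Gbp3 (chr3:142559989-142560018, + strand): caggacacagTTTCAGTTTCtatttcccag
Gbp5 (chr3:142496759-142496788, + strand): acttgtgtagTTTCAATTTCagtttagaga
Gbp7 (chr3:142530273-142530302, + strand): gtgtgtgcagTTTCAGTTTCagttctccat
Irgm1 (chr11:48871431-48871460, - strand): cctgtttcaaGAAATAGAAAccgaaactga
Igtp (chr11:58199512-58199541, + strand): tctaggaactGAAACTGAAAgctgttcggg
Irgm2 (chr11:58214903-58214932, + strand): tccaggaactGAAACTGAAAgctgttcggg
In Gbp3 and Irgm1 a second match overlapped the one shown. These matches are a description of letters, and binding was not measured.

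The GAS core TTCNNNGAA was in 4 of the 9 entries (44.4%) against 8.3% of all promoters, namely in Gbp5, Gbp7, Igtp and Irgm2. In Igtp and Irgm2 it stood directly ahead of the ISRE core, with 2 bases between them. The windows of this pair are shown with the GAS core in capitals.
Igtp (chr11:58199501-58199529, + strand): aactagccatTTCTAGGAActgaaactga
Irgm2 (chr11:58214892-58214920, + strand): aactagccatTTCCAGGAActgaaactga
The Igtp and Irgm2 promoters were 92.1% identical over 265 aligned bases, so their matches are not independent of each other. In Gbp5 and Gbp7 each window held 2 GAS cores, 245 and 52 bases before the start of Gbp5 and 106 and 87 bases before that of Gbp7.

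**Figure D1:**
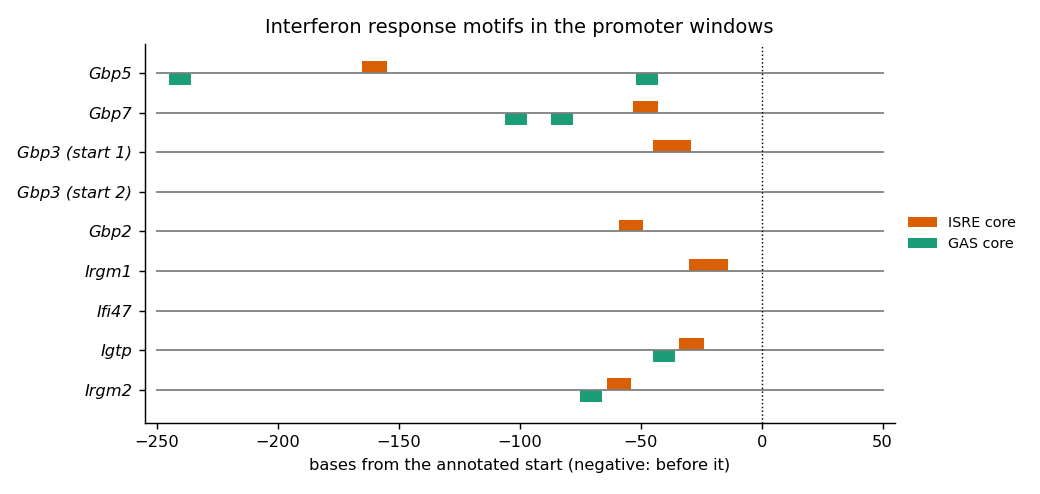
Positions of the ISRE core (orange, above the line) and the GAS core (green, below the line) in the 9 promoter windows of 8 genes, as bases from the annotated start. Except for the ISRE core of Gbp5, 165 bases before its start, every ISRE match began within 64 bases of the start, and the windows of Ifi47 and of the second start of Gbp3 held neither motif.

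The genes lie in clusters. Gbp2 (chromosome 3, 142620663 to 142638008), Gbp3 (142560016 to 142573213), Gbp5 (142496934 to 142522344) and Gbp7 (142530336 to 142550151) are neighbours, and Gbp4 lies apart on chromosome 5 (105115767 to 105139586). Irgm1 (chromosome 11, 48865245 to 48871420), Ifi47 (49076587 to 49096987), Igtp (58199556 to 58207592) and Irgm2 (58214977 to 58222783) are on chromosome 11. Reads of close relatives can be shared. Of the 50-base words of its transcript, Igtp shares 12.3% with Irgm2, and Irgm2 shares 7.1% with Igtp. Gbp4 shares 12.8% of its words with other genes and Gbp7 12.8%, most of it with the overlapping Gm43802. Ifi47 shares exons with Olfr56 on its own strand and is overlapped by the antisense Gm12188, and the strand setting of the counting is not given in the sources used here. The counts of these genes carry that uncertainty.

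Library totals ran from 2127191 to 5649698 counts, so that 3 counts correspond to 0.534 to 1.34 CPM (counts scaled to library size with TMM), for counting error only. All 10 listed macrophage markers were detected, with a summed level of 4410 CPM or more in every library. The sort markers fitted the labels. Itgax, which encodes CD11c, lay at 107 CPM or more in every CD11c+MHCII+ library and at 10.7 CPM or less in every MHCII+CD11c- library, and the MHC class II gene H2-Ab1 lay at no less than 2080 CPM. In bulk RNA, fewer cells of a type and less RNA per cell cannot be told apart.

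The first question was whether the GTPase genes changed with CGRP within either subset. In MHCII+CD11c- macrophages 8 of the 10 genes rose with CGRP and none fell (edgeR quasi-likelihood test, Benjamini-Hochberg adjusted p under 0.05 over all genes), where 5.32% of all tested genes rose. Their median log2 change was 1.79 against -0.02 over all genes. In CD11c+MHCII+ MNPs 9 of the 10 rose and none fell, with a median of 1.77 against 0 over all genes, 6.29% of which rose. The CGRP libraries lay above all control libraries for 9 genes in MHCII+CD11c- macrophages and for all 10 in the MNPs. Such separation upwards was seen for 12.9% and 15.4% of all genes. Gbp4 did not pass in either subset, and Gbp7 did not pass in MHCII+CD11c- macrophages.

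**Figure D2:**
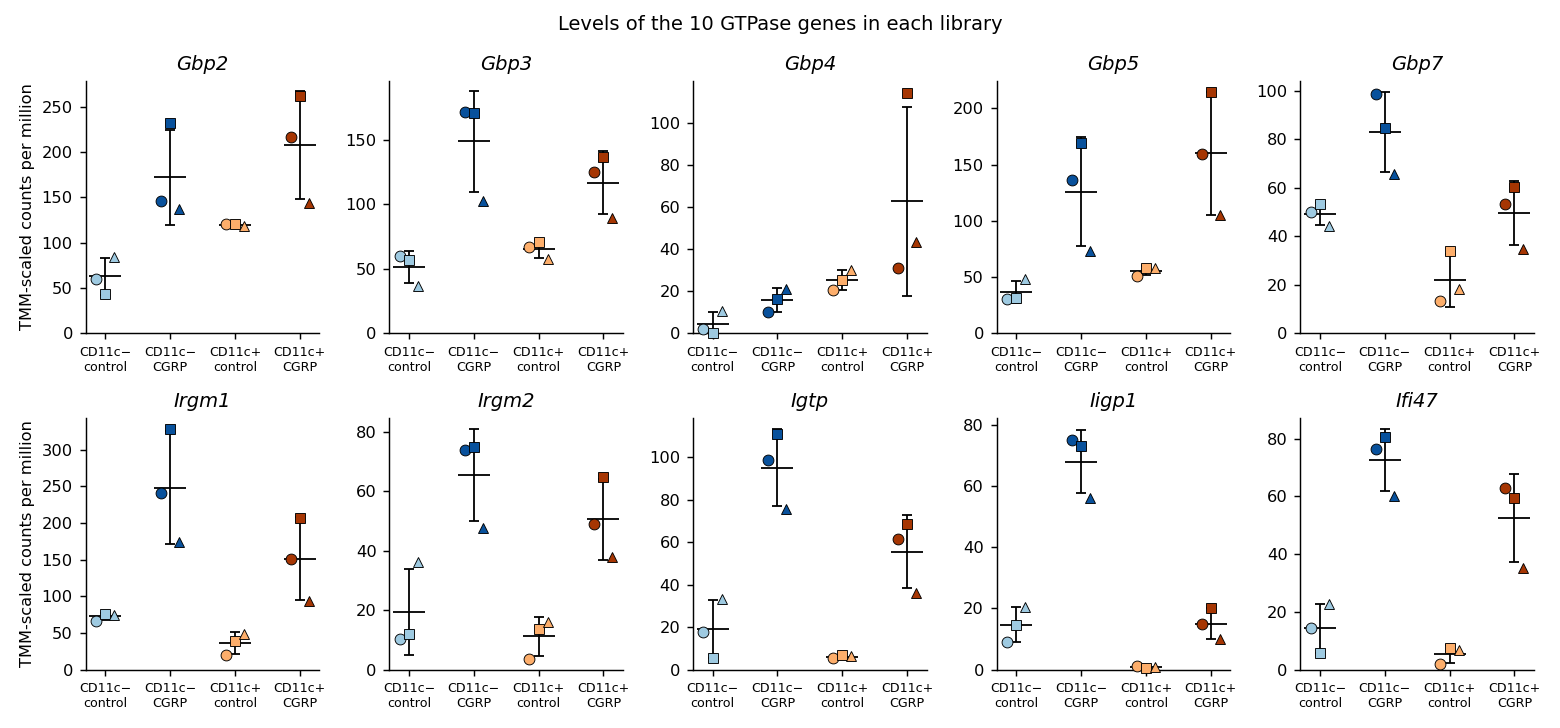
CPM (TMM-scaled) of the 10 genes in each of the 12 libraries, on linear axes from 0. Circles, squares and triangles are replicates 1, 2 and 3, and bars give the mean ± SD of 3 libraries, with the lower bar of Gbp4 in control MHCII+CD11c- macrophages stopped at 0. CGRP libraries lie above the controls of their subset for every gene except Gbp4 in MHCII+CD11c- macrophages, and replicate 3 is the lowest CGRP library of 9 genes in each subset.

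The IRG regulators responded strongly. Irgm1, which controls vacuole targeting and autophagy, stood at 67.0, 76.3 and 74.8 CPM in control MHCII+CD11c- libraries (replicates 1 to 3) and at 241, 328 and 174 CPM with CGRP. In MNPs it stood at 20.0, 38.8 and 49.1 CPM without CGRP and at 151, 207 and 94.3 CPM with it. The lowest CGRP library thus lay above the highest control in each subset. Irgm1 rose by a log2 fold change of 1.77 ± 0.28 in MHCII+CD11c- macrophages (adjusted p 0.000413) and of 2.03 ± 0.29 in MNPs (adjusted p 8.39e-05).

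Igtp, also called Irgm3, was at 18, 5.73 and 33.1 CPM in control and at 98.7, 111 and 75.6 CPM in CGRP libraries of MHCII+CD11c- macrophages. In MNPs the controls were close together at 5.30, 6.78 and 6.44 CPM, and the CGRP libraries were at 61.8, 68.8 and 36.3 CPM. The groups did not overlap, although control levels in MHCII+CD11c- macrophages spread widely. Igtp rose by 2.38 ± 0.37 (log2, adjusted p 0.00037) in MHCII+CD11c- macrophages and by 3.14 ± 0.41 (adjusted p 3.47e-05) in MNPs, an 8.81-fold rise. Its neighbour Irgm2, which holds caspase-11 responses in check, went from 19.5 ± 14.5 to 65.5 ± 15.4 CPM in MHCII+CD11c- macrophages (mean ± SD, n = 3) and from 11.2 ± 6.61 to 50.6 ± 13.6 CPM in MNPs. It rose in both subsets (1.80 ± 0.41, adjusted p 0.00783, and 2.10 ± 0.42, adjusted p 0.00209).

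The effector IRGs rose in both subsets. Ifi47 (IRG-47) lay at 14.3, 5.73 and 22.8 CPM in control and 76.5, 80.7 and 60.3 CPM in CGRP libraries of MHCII+CD11c- macrophages. In MNPs it lay at 2.04, 7.48 and 6.87 CPM without and 62.9, 59.4 and 35.1 CPM with CGRP. No CGRP library reached down to a control. Ifi47 rose by 2.39 ± 0.37 (adjusted p 0.000329) and 3.16 ± 0.40 (adjusted p 2.33e-05) on the log2 scale.

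Iigp1 (Irga6), an effector that coats the vacuoles of Toxoplasma and Chlamydia, stood out by its low level in control MNPs. It had 3, 2 and 4 counts there, or 1.22, 0.468 and 0.858 CPM, against 9, 14.6 and 20.6 CPM in control MHCII+CD11c- macrophages. With CGRP it reached 15, 20 and 9.96 CPM in MNPs and 74.9, 73.1 and 56.0 CPM in MHCII+CD11c- macrophages. CGRP-treated MNPs therefore lay in the range of untreated MHCII+CD11c- macrophages. The rise was 4.17 ± 0.45 in MNPs (adjusted p 5.39e-06) and 2.23 ± 0.30 in MHCII+CD11c- macrophages (adjusted p 8.58e-05). Because the MNP controls hold only 9 counts in all, the ratio of summed levels with CGRP to without was 18.3, with an exact 95% interval from 9.46 to 40.5 that covers counting error only. Iigp1 lies on chromosome 18 (60373616 to 60392634).

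Among the GBPs, Gbp5, which promotes NLRP3 inflammasome assembly, rose in both subsets. It was at 30.7, 31.2 and 47.9 CPM in control and 136, 169 and 72.8 CPM in CGRP libraries of MHCII+CD11c- macrophages, and at 51.0, 58.2 and 57.7 CPM and 159, 215 and 105 CPM in MNPs. Within each subset the groups were apart. The log2 changes were 1.79 ± 0.28 (adjusted p 0.000385) and 1.52 ± 0.27 (adjusted p 0.000825).

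Gbp2, which is recruited to Toxoplasma vacuoles and to cytosolic bacteria, stood at 60.2, 43.6 and 84.2 CPM in control and 146, 232 and 137 CPM in CGRP libraries of MHCII+CD11c- macrophages. In MNPs the controls were almost level at 121, 121 and 118 CPM, and CGRP libraries were at 217, 262 and 144 CPM. Gbp2 rose by 1.47 ± 0.24 (adjusted p 0.000547) in MHCII+CD11c- macrophages and by 0.79 ± 0.23 (adjusted p 0.0334) in MNPs. Gbp3 moved likewise, from 51.1 ± 12.5 to 149 ± 39.4 CPM (1.53 ± 0.22, adjusted p 0.000164) and from 65.1 ± 7.08 to 117 ± 24.7 CPM (0.85 ± 0.22, adjusted p 0.0136). The MNP calls of this pair were narrow. Without any 1 of the 3 MNP controls, or without MNP CGRP replicate 1 or 2, Gbp2 no longer passed there (adjusted p 0.0864 to 0.182), and Gbp3 did not pass without MNP control replicate 3 (adjusted p 0.0801), CGRP replicate 1 (0.0532) or CGRP replicate 2 (0.067).

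Gbp7, which has been tied to autophagy and NADPH oxidase assembly, was at 49.9, 53.3 and 44.3 CPM in control and 98.7, 84.8 and 65.6 CPM in CGRP libraries of MHCII+CD11c- macrophages. In MNPs it was at 13.1, 33.9 and 18.2 CPM and at 53.3, 60.1 and 34.7 CPM. The groups did not overlap in either subset, although MNP CGRP replicate 3 lay only just above the highest control. The change passed in MNPs (1.15 ± 0.28, adjusted p 0.00899, but 0.062 without MNP control replicate 3) and not in MHCII+CD11c- macrophages (0.75 ± 0.26, adjusted p 0.0876). In the latter it passed with the replicate number as a block (adjusted p 0.0372), with 1 surrogate variable (0.0472), with the compared libraries alone (0.0157), with no count filter (0.00254) and without MNP control replicate 2 (0.0332).

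Gbp4, a GBP that binds IRF7 and damps type I interferon induction, spread widely within some groups. In MHCII+CD11c- macrophages it lay at 1.86, 0 and 10.7 CPM in control and 9.79, 16.3 and 21.1 CPM in CGRP libraries, with overlap between control replicate 3 and CGRP replicate 1. In MNPs it lay at 20.4, 25.3 and 29.8 CPM without CGRP and 31.1, 114 and 43.1 CPM with it, so that replicate 2 set most of the mean. Neither log2 difference passed (2.12 ± 0.70, adjusted p 0.0641, and 1.30 ± 0.53, adjusted p 0.139). Without control replicate 3 the difference in MHCII+CD11c- macrophages was 4.12 and passed (adjusted p 0.00291). It also passed there with the replicate block (0.0431), without MNP CGRP replicate 1 (0.0441) or 2 (0.0389) and with no count filter, and in MNPs it passed with the compared libraries alone (0.0498) and with no count filter.

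**Figure D3:**
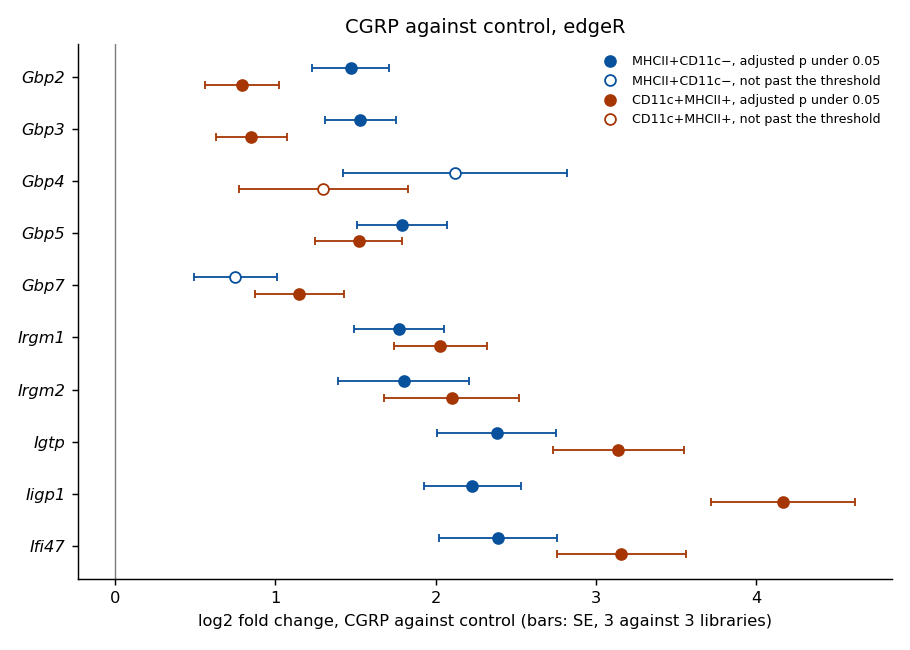
Log2 fold change of each gene with CGRP against control in MHCII+CD11c- macrophages (blue) and CD11c+MHCII+ MNPs (brown), with SE bars from the edgeR fit. Filled points have an adjusted p under 0.05. Open points, Gbp4 in both subsets and Gbp7 in MHCII+CD11c- macrophages, do not, and the 5 IRGs lie to the right of the GBPs in MNPs.

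The next question was whether the subsets responded differently. The subset-by-CGRP interaction, the log2 change in MNPs minus that in MHCII+CD11c- macrophages, passed for 0 of the 10 genes and for 0.151% of all genes. At an unadjusted p under 0.05 there were Iigp1 (p 0.00314) and Gbp3 (p 0.0391), and DESeq2, limma-voom and the block fits also called none of the 10. The estimate was largest for Iigp1 (1.95 ± 0.57, adjusted p 0.237), with adjusted p between 0.0696 and 1 over the other settings. It was 0.76 ± 0.55 for Igtp and 0.77 ± 0.54 for Ifi47. For Irgm1 (0.26 ± 0.40) and Irgm2 (0.30 ± 0.58) it changed sign when a library was left out. Among the GBPs it was -0.68 ± 0.33 for Gbp2, -0.68 ± 0.31 for Gbp3, -0.82 ± 0.88 for Gbp4, -0.28 ± 0.39 for Gbp5 and 0.40 ± 0.38 for Gbp7. These errors are too wide to show either a difference between the subsets or its absence.

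The families were also summed within each library, as a description without a test. The 5 IRGs together amounted to 0.586, 0.618 and 0.838 of the GBP sum in control MHCII+CD11c- libraries and to 1.01, 0.992 and 1.03 of it with CGRP. In MNPs the ratio was 0.118, 0.217 and 0.282 without and 0.580, 0.534 and 0.513 with CGRP. The ratio was thus higher in every CGRP library than in the controls of its subset, and at either treatment it was lower in every MNP library than in any MHCII+CD11c- library. The GBP sum went from 204 ± 19.3 to 545 ± 137 CPM in MHCII+CD11c- macrophages and from 288 ± 19.6 to 597 ± 186 CPM in MNPs. The IRG sum went from 140 ± 41.1 to 549 ± 128 CPM and from 59.6 ± 24.5 to 325 ± 104 CPM. CPM sums weight long transcripts more than short ones.

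**Figure D4:**
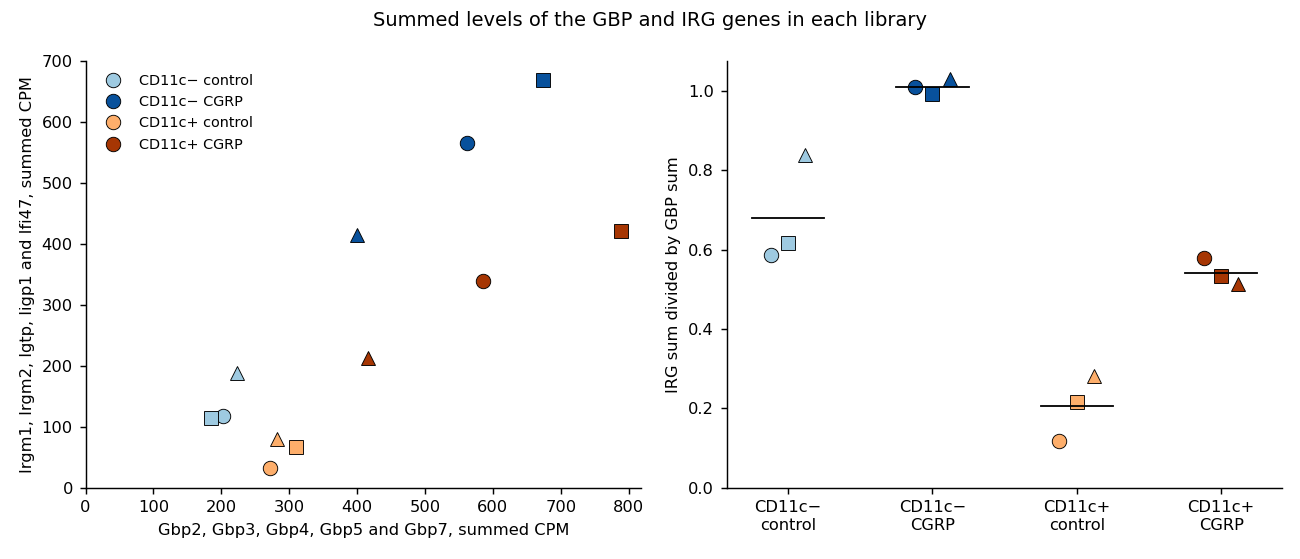
Left, summed CPM of the 5 IRGs (vertical) against that of the 5 GBPs (horizontal) in each library. Right, the ratio of these sums, with a line at the mean of 3 libraries and circles, squares and triangles for replicates 1, 2 and 3. The MNP libraries lie lower than the MHCII+CD11c- libraries of the same treatment, with ratios of 0.118 to 0.282 in control and 0.513 to 0.580 in CGRP libraries.

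Subset differences were then compared directly. Among control libraries, 2 of the 10 genes were higher in MNPs and 5 lower, where 10.2% of all genes were higher and 10.9% lower. Higher were Gbp2 (0.95 ± 0.24, adjusted p 0.00788) and Gbp4 (2.80 ± 0.69, adjusted p 0.00597). Lower were Iigp1 (-4.13 ± 0.46, adjusted p 3.06e-06), Igtp (-1.53 ± 0.44, adjusted p 0.0165), Ifi47 (-1.24 ± 0.43, adjusted p 0.0465), Gbp7 (-1.15 ± 0.28, adjusted p 0.00565) and Irgm1 (-0.98 ± 0.29, adjusted p 0.0220). The ranges of Igtp and Ifi47 overlapped, since MHCII+CD11c- control replicate 2 was low for both. Without MHCII+CD11c- control replicate 3 or without MNP control replicate 1 the count of 7 calls fell to 4. Iigp1, Gbp7, Gbp2 and Gbp4 kept their calls in each fit that left out a library, Irgm1 lost its call in 4 of the 12, Igtp in 3 and Ifi47 in 10. Without MHCII+CD11c- control replicate 3 the difference was 4.79 for Gbp4, -0.89 for Igtp and -0.75 for Ifi47. In DESeq2 neither Gbp4 (2.63, adjusted p 0.0603) nor Irgm1 (-1, adjusted p 0.062) passed, which left 5 genes. In limma-voom Irgm1 (adjusted p 0.08), Igtp (0.194) and Ifi47 (0.264) did not pass. With 1 surrogate variable Gbp2 (0.91, adjusted p 0.0739), Gbp7 (-0.63, 0.246), Irgm1 (-0.47, 0.471), Igtp (-1.72, 0.0612) and Ifi47 (-1, 0.287) did not pass. With treatment and replicate number as a block Gbp5 was also higher in MNPs (0.63, adjusted p 0.00869), and with the replicate number alone as a block Ifi47 did not pass (0.0613).

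After CGRP, Gbp4 was higher in MNPs (1.97 ± 0.54, adjusted p 0.0154) and Iigp1 lower (-2.19 ± 0.29, adjusted p 2.34e-05), against 8.36% and 8.51% of all genes. Gbp7 (-0.75 ± 0.26, adjusted p 0.0537) and Irgm1 (-0.72 ± 0.27, adjusted p 0.0771) did not pass. With treatment and replicate number together as a block, which compares the subsets within same-numbered libraries, 5 genes passed, adding Gbp7 (adjusted p 0.0119), Irgm1 (0.00221) and Igtp (0.0396), all lower in MNPs. Gbp4 rested on a few libraries. Without MNP CGRP replicate 2 its difference was 1.23 (adjusted p 0.166), and it also missed the threshold without MHCII+CD11c- CGRP replicate 1 (0.0781) or 2 (0.0553). Iigp1 passed in each of the 23 other settings of this comparison. The type I interferon targets described below also stood lower in MNPs. Of 28, 14 were lower among control and 12 among CGRP libraries and none higher, beside 10.9% and 8.51% of all genes lower. Those counts were 8 and 2 with 1 surrogate variable, and the second was 6 in DESeq2, 7 or 6 without MHCII+CD11c- CGRP replicate 1 or 2 and 5 without MNP CGRP replicate 3.

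Levels of different genes were compared per kilobase of transcript (CPM per kb). In control MHCII+CD11c- macrophages Irgm1 was highest at 32.2 ± 2.21 CPM per kb, followed by Gbp2 at 24.9 ± 8.11, Gbp3 at 19.1 ± 4.68 and Gbp5 at 12 ± 3.20 CPM per kb. Gbp4 was lowest at 0.923 ± 1.26 CPM per kb. Gbp2 and Gbp3 did not differ beyond their spread. In control MNPs 3 GBPs came first, with Gbp2 at 47.7 ± 0.688, Gbp3 at 24.3 ± 2.64 and Gbp5 at 18.2 ± 1.32 CPM per kb, ahead of Irgm1 at 15.9 ± 6.53 CPM per kb. Gbp5 and Irgm1 overlapped there, and Iigp1 was lowest at 0.272 ± 0.121 CPM per kb. With CGRP, Irgm1 led in MHCII+CD11c- macrophages at 110 ± 34.2 CPM per kb and Gbp2 in MNPs at 82.5 ± 23.7 CPM per kb, where Irgm1 at 66.7 ± 24.9 CPM per kb lay within its spread.

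Across the 12 libraries the genes fell into partly separate profiles, given here as a description over libraries that share groups. Igtp and Ifi47 correlated at a Pearson r of 0.98 (log2 CPM), Irgm2 and Ifi47 at 0.96, and Irgm1 with these 3 at 0.91 to 0.94. Gbp2 and Gbp5 correlated at 0.94 and Gbp2 and Gbp4 at 0.86. Gbp4 and Iigp1 did not run together (r -0.12), and Gbp7 followed Irgm1 (0.89) and Iigp1 (0.88) more than the GBPs of its cluster, Gbp3 (0.59), Gbp5 (0.44) and Gbp2 (0.20). Among genes whose symbol is outside all lists, the profile most like the mean of the 10 was that of Gm5431 (r 0.986), which RefSeq lists with the synonym Irgb9b8. It was followed by Ifi209 (0.984), Ogfr (0.981), Rigi (0.981), which is the newer symbol of a gene among the type I targets below, and Tor1aip2 (0.976).

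Libraries of a group differed in step. CGRP replicate 3 was the lowest CGRP library for 9 of the 10 genes in MHCII+CD11c- macrophages and for 9 in MNPs, with Gbp4 as the exception in both, and replicate 2 was the highest for 6 and 9 genes. Among controls, replicate 1 of MNPs was the lowest for 7 genes and replicate 3 of MHCII+CD11c- macrophages the highest for 7. These had the smallest totals of all libraries (2455650 and 2127191 counts). Ifnb1, which encodes interferon-beta, was at 125, 136 and 38.3 CPM in CGRP libraries of MHCII+CD11c- macrophages and at 26.8, 45.5 and 6.94 CPM in those of MNPs, so that replicate 3 was lowest in both. Its control levels were 45.6, 30.1 and 54.2 CPM and 4.90, 7.01 and 4.08 CPM, so that replicate 3 lay among the controls. With CGRP Ifnb1 rose in MNPs (2.28 ± 0.57, adjusted p 0.0121, but 0.249 in limma-voom, 0.0682 without MNP control replicate 3 and 0.0774 without CGRP replicate 2) and did not pass in MHCII+CD11c- macrophages (1.21 ± 0.46, adjusted p 0.121, but 0.0267 without CGRP replicate 3, 0.0329 without MNP CGRP replicate 3, 0.0242 with the compared libraries alone and 2.93e-07 with no count filter). Its part in the levels of the GTPases was not tested. Ifng was not analysed here.

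**Figure D5:**
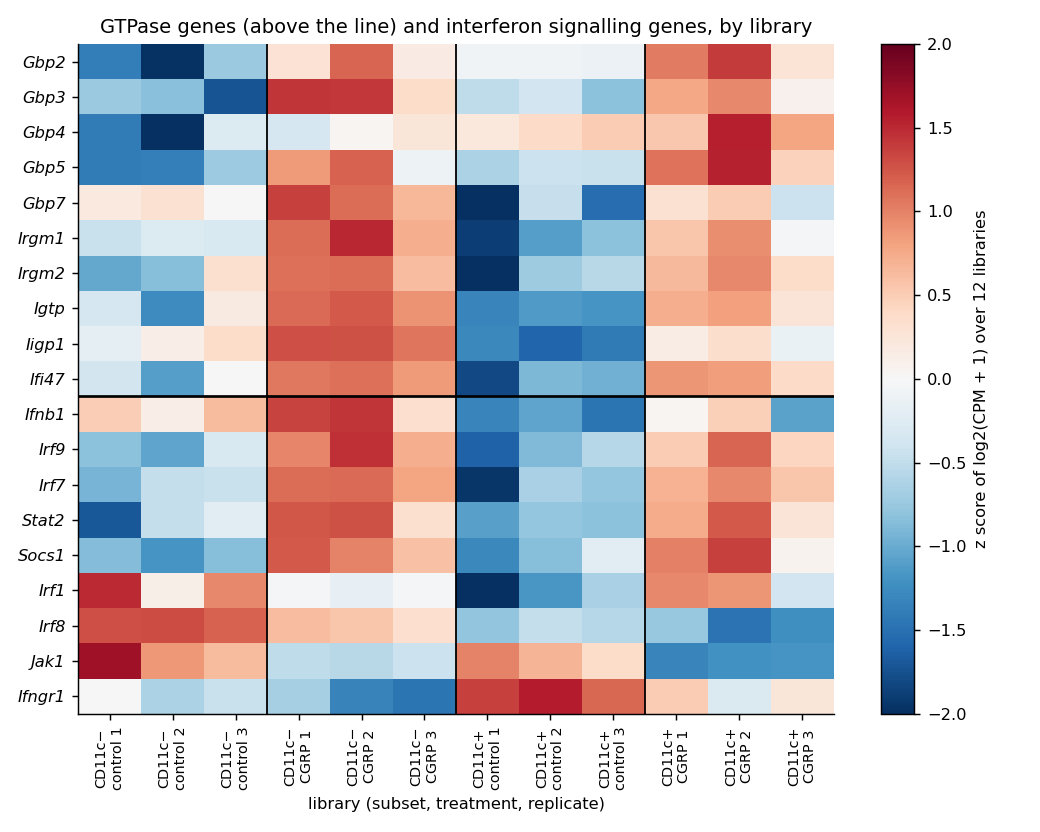
Z scores of log2(CPM + 1) over the 12 libraries for the 10 GTPase genes (above the horizontal line) and 9 interferon signalling genes (below it), with 3 libraries in each of 4 groups. Red is above and blue below a gene's mean, and the scale stops at 2. The CGRP columns are red for most GTPases and for Irf9, Irf7, Stat2 and Socs1, while Jak1 is blue there.

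The signalling genes did not move as 1 block. In a list of interferon-gamma signalling genes, 3 of 15 tested genes rose and 4 fell in MHCII+CD11c- macrophages (median log2 change -0.21), and 4 rose and 2 fell in MNPs (median -0.04), beside rises in 5.32% and 6.29% and falls in 3.89% and 4.59% of all genes. The total of 7 in MHCII+CD11c- macrophages was 4 without control replicate 1 or CGRP replicate 2, and the total of 6 in MNPs was 3 without control replicate 1 or 2 or CGRP replicate 2. The feedback inhibitor Socs1 rose in both (1.40 ± 0.30 and 1.16 ± 0.29, adjusted p 0.00484 and 0.0129). The kinase Jak1 fell in both (-0.70 ± 0.13 and -0.85 ± 0.13, adjusted p 0.00118 and 0.00015). Irf1, which relays the interferon-gamma signal to GTPase genes, rose in MNPs from 76.4 ± 14.1 to 123 ± 23.1 CPM (0.68 ± 0.18, adjusted p 0.0161) and did not pass in MHCII+CD11c- macrophages (-0.37 ± 0.17, adjusted p 0.219). The MNP calls of Irf1 and Socs1 were lost without MNP control replicate 1 or 2 or CGRP replicate 1 or 2 (adjusted p 0.0636 to 0.0984 for Irf1 and 0.0542 to 0.0828 for Socs1).

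The receptor chain Ifngr1 fell in MNPs (-0.50 ± 0.15, adjusted p 0.0414, but 0.0529 to 0.197 without any 1 MNP control, MNP CGRP replicate 2 or 3 or MHCII+CD11c- CGRP replicate 2) and did not pass in MHCII+CD11c- macrophages (-0.33 ± 0.16, adjusted p 0.228). Ifngr2 stood at 55.3 ± 6.02 and 47.8 ± 3.19 CPM in MHCII+CD11c- macrophages and 56.7 ± 4.92 and 59.7 ± 6.00 CPM in MNPs, without and with CGRP, and did not pass. Jak2 did not pass in MNPs (-0.45 ± 0.15, adjusted p 0.0571), although it passed there in DESeq2 (0.0218), in limma-voom (0.00927), under RLE (0.0493) and upper-quartile (0.0269) scaling, with the replicate block (0.0234), with the compared libraries alone (0.00875) and with no count filter (0.0335). It did not pass in MHCII+CD11c- macrophages (adjusted p 0.6). Irf8 fell in MHCII+CD11c- macrophages (-0.79 ± 0.18, adjusted p 0.00697) and did not pass in MNPs (-0.56 ± 0.19, adjusted p 0.073, but 0.0113 without CGRP replicate 1 and 0.0483 under upper-quartile scaling). Of 10 type I interferon signalling genes, 4 rose in MHCII+CD11c- macrophages and 5 in MNPs, and none fell, beside rises in 5.32% and 6.29% of all genes. Stat2 rose by 1.52 ± 0.28 and 1.49 ± 0.28 (adjusted p 0.00131 and 0.00116), Irf9 by 1.40 ± 0.22 and 1.32 ± 0.22 (0.000322 and 0.000336) and Irf7 by 2.33 ± 0.30 and 2.46 ± 0.30 (4.77e-05 and 1.92e-05). The mean GTPase profile correlated over the 12 libraries with Irf9 at 0.985, Irf7 at 0.952, Ifnb1 at 0.648, Irf1 at 0.369 and Jak1 at -0.84, with no test.

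A list of other interferon-inducible GTPases, which does not hold Gm5431, was read beside the 10. Of 20 with a row, 15 were tested, of which 7 rose in MHCII+CD11c- macrophages and 9 in MNPs, and none fell (medians 1.28 and 1.30). Rises were seen in 5.32% and 6.29% of all genes. The log2 change was above 0 for 11 of the 15 in each subset, whether or not it passed. Gm12250, the IRG known as Irgb10, was at 12.7, 4.87 and 17.9 CPM in control and 74.6, 97.9 and 43.4 CPM in CGRP libraries of MHCII+CD11c- macrophages (2.64 ± 0.48, adjusted p 0.00111). It was at 2.45, 3.97 and 11.6 CPM and 40.1, 47.3 and 17.3 CPM in MNPs (2.43 ± 0.49, adjusted p 0.00240). Gm4951, a relative of Iigp1, showed a similar low level in control MNPs, at 0, 0.234 and 0.215 CPM against 1.86, 1.15 and 9.40 CPM in MHCII+CD11c- controls. With CGRP it was at 6.33, 1.98 and 3.91 CPM in MNPs and 19.9, 30.4 and 20.7 CPM in MHCII+CD11c- macrophages, and it rose in both (adjusted p 0.0036 and 0.00684).

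Tgtp2, another effector IRG, rose in MNPs (3.06 ± 0.51, adjusted p 0.000461) and did not pass in MHCII+CD11c- macrophages (1.28 ± 0.46, adjusted p 0.0919, but 0.0352 without control replicate 3, 0.0423 without MNP control replicate 1, 0.0167 with the compared libraries alone and 6.47e-05 with no count filter). The dynamin-like Mx1, an antiviral GTPase, rose by 2.18 ± 0.36 and 2.23 ± 0.36 (adjusted p 0.000492 and 0.000264), and Mx2 by 1.54 ± 0.36 and 1.91 ± 0.38 (adjusted p 0.00883, or 0.0528 without MHCII+CD11c- control replicate 1, and 0.00215). The very large inducible GTPases Gvin1 and Gvin2 rose by 1.25 to 1.5 in both subsets (adjusted p 0.000916 to 0.00735), and so did 9930111J21Rik2 (1.40 ± 0.30 and 1.30 ± 0.30, adjusted p 0.00512 and 0.00641). Their relative Gvin3 did not pass, and its mean level was lower with CGRP in both subsets. It went from 23.8 ± 5.11 to 16.9 ± 2.5 CPM in MHCII+CD11c- macrophages and from 53.1 ± 10.1 to 33.2 ± 7.28 CPM in MNPs. Without MNP CGRP replicate 2 the MNP calls of Gvin1 (0.0558) and 9930111J21Rik2 were lost. The related 9930111J21Rik1 passed in MNPs alone (1.17 ± 0.37, adjusted p 0.0457), a call lost under RLE (0.0503) and upper-quartile (0.0536) scaling and, at the most, at 0.345 without MNP CGRP replicate 2.

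Targets beyond the GTPases were counted for context. Of 28 tested genes of a type I target list, 25 rose in MHCII+CD11c- macrophages and 26 in MNPs and none fell (medians 1.88 and 2.14). Among all genes 5.32% and 6.29% rose. Ifit2, which blocks viral translation, rose by 3.81 in both (± 0.46 and 0.48, adjusted p 2.53e-05 and 2.11e-05), and the nucleotide kinase Cmpk2 by 3.31 ± 0.34 and 3.90 ± 0.37 (4.76e-06 and 2.13e-06). Ifit3 rose by 3.25 ± 0.39 and 3.76 ± 0.42 and Ifit3b by 3.27 ± 0.57 and 2.99 ± 0.62, all with adjusted p of 0.003 or less. Of 27 tested interferon-gamma targets other than GTPases, 10 rose and 6 fell in MHCII+CD11c- macrophages, and 12 rose and 4 fell in MNPs (medians 0.53 and 0.65). Among all genes 3.89% and 4.59% fell. Nos2, the inducible nitric oxide synthase, rose by 3.89 ± 0.66 and 5.18 ± 0.72 (adjusted p 0.000697 and 5.96e-05), the former not in limma-voom (0.0915). In MNPs its CGRP libraries spread widely, at 92.2, 12.4 and 28.1 CPM, against controls at 3.26, 0.234 and 0.858 CPM. Cd274, which encodes the checkpoint ligand PD-L1, rose by 2.07 ± 0.16 and 1.33 ± 0.16 and the Fc receptor gene Fcgr1 by 1.38 ± 0.24 and 1.78 ± 0.25. H2-Ab1 fell in both subsets (-0.74 ± 0.11 and -0.66 ± 0.11, adjusted p 0.000316 and 0.000574), and Itgax fell in MNPs (-1.03 ± 0.30, adjusted p 0.0288, but 0.353 in DESeq2 and 0.0513 to 0.102 without any 1 of the 6 MNP libraries).

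Partners of the GTPases at vacuoles and inflammasomes were counted in the same way. Of 24 tested genes, 2 rose and 1 fell in MHCII+CD11c- macrophages, where 5.32% of all genes rose and 3.89% fell, and 3 rose and none fell in MNPs, where 6.29% rose (medians 0.17 and 0.01). The MNP count was 1 without CGRP replicate 3. Lgals8, a galectin that marks damaged vacuoles, rose by 0.73 ± 0.17 and 0.92 ± 0.17 (adjusted p 0.00796 and 0.0013), and Lgals3 by 0.63 ± 0.11 and 0.35 ± 0.11 (0.000637 and 0.0382, the latter lost under RLE scaling at 0.0532 and without any 1 MNP library, at up to 0.184). Gabarap, which conjugates to vacuole membranes, rose in MNPs (0.46 ± 0.12, adjusted p 0.0116), a call lost without MNP control replicate 2 (0.0841) or 3 (0.0513) or CGRP replicate 3 (0.0882). Casp4, which encodes caspase-11, fell in MHCII+CD11c- macrophages from 106 ± 8.22 to 63.8 ± 14.8 CPM (-0.73 ± 0.20, adjusted p 0.0215, but 0.052, 0.0831 and 0.126 without control replicate 1 or 3 or CGRP replicate 3) and did not pass in MNPs (-0.51 ± 0.20, adjusted p 0.112).

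Markers of other cell types moved with treatment and subset, and their part in these results was not tested. The summed level of 10 T and NK cell markers with a row, of which 2 passed the count filter, was 12.1 to 45.6 CPM without and 6.56 to 8.67 CPM with CGRP in MHCII+CD11c- macrophages, and 37.9 to 50.6 and 12.1 to 20.1 CPM in MNPs. This sum was read in the sorted cells and does not describe the T and NK cells of the tissue during the 4 h. The sum of 8 fibroblast markers was 201 to 277 CPM without and 444 to 698 CPM with CGRP in MNPs, and 308 to 1550 and 567 to 771 CPM in MHCII+CD11c- macrophages. Much of it was Pdpn, except in control MHCII+CD11c- macrophages, where the sum reached 1550 CPM. Pdpn rose in both subsets, from 203 ± 43.8 to 371 ± 48.0 CPM in MNPs and from 176 ± 13.9 to 578 ± 58.1 CPM in MHCII+CD11c- macrophages. Of the 6 fibroblast markers tested, 3 rose in MNPs and none fell (median log2 change 2.31, largest 4.88), where 6.29% of all genes rose. In MHCII+CD11c- macrophages 1 rose and 3 fell (median -2.22), the latter being the collagen genes Col1a1, Col1a2 and Col3a1 (-2.37 to -3.05). Among all genes 5.32% rose and 3.89% fell there. The sum of 9 endothelial markers was 19.7 to 188 and 19.8 to 117 CPM in MNPs and 15.5 to 22.3 and 25.8 to 40.6 CPM in MHCII+CD11c- macrophages. The sum of 6 dendritic cell markers was 617 to 771 CPM in MNP libraries and 85.8 to 168 CPM in MHCII+CD11c- libraries, a difference that goes with the subset contrasts. The B cell sum (4 markers) was lower with CGRP in each subset without overlap, at 43.7 to 91.5 and 17.7 to 31.5 CPM in MHCII+CD11c- macrophages and 6.87 to 8.97 and 0.712 to 3.71 CPM in MNPs, and lower in MNPs at either treatment. The sum of 5 plasmacytoid dendritic cell markers was 40 to 74.4 CPM without and 77 to 84.8 CPM with CGRP in MNPs, without overlap, and 107 to 109 and 102 to 144 CPM in MHCII+CD11c- macrophages. The macrophage sum was 6450 to 8360 CPM without and 4410 to 5680 CPM with CGRP in MNPs, and 8910 to 12200 and 7760 to 9590 CPM in MHCII+CD11c- macrophages. Among control libraries 9 of the 10 macrophage genes were lower in MNPs, beside 10.9% of all genes. Neutrophil sums ranged widely within groups, from 0 to 144 CPM.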

How the data were processed

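Raw counts per gene symbol were deposited for 12 libraries. Per the study's methods and the submitters' processing notes, the authors used Trim Galore, FastQC, HISAT2 (mm10) and featureCounts, with no normalisation. Versions, annotation and strand setting are not given in the sources used here. The series table repeats these counts and holds 6 further columns that match no label and were not used.

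Low counts were removed with filterByExpr of edgeR, given the groups, at a count of 10 and a total of 15. The rest were scaled by TMM and fitted over all 12 libraries with edgeR 4.0.16 (R 4.3.3) quasi-likelihood, with a mean per group and 5 contrasts. Adjusted p-values are Benjamini-Hochberg over all 11927 genes, and changes are log2 ± SE. The study names DESeq2, and sva for taking out batch effects. Here DESeq2 (1.42.0) and 1 surrogate variable (sva 3.50.0) were run as alternatives. Other settings, among them limma-voom (limma 3.58.1), are named in the closing section. Replicates differed beyond sampling noise (chi-square per degree of freedom 5.95 to 13.8). The tests were also run on simulated counts, with an outcome that is not given here. Such a run cannot show whether the libraries of a group are technical replicates.

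Members and lists were chosen with earlier results of these data known. The text names all 10 genes, fixed signalling genes, GTPases past the threshold in a CGRP contrast and Gvin3, which did not pass. It also names up to 3 genes of each target list per CGRP contrast by size of change at 5 CPM or more, and the 5 most similar genes. One gene that this rule takes is not reported here. Transcript lengths are from GENCODE vM21 and gene positions from RefSeq GRCm38.p6.

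Labels do not say that replicate numbers mark shared explants. For CGRP libraries of equal number in the 2 subsets, the correlation of deviations from group means was 0.233, 0.126 and 0.136 over 7618 genes with at least 10 counts in each library, but 0.259, 0.071 and 0.072 over 8789 genes of at least 5 CPM. Whether the numbers pair these libraries thus depends on the genes taken, and paired values stand beside the subset comparison after CGRP.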

Additional observations from a re-analysis of the deposited data

How the results depend on the processing

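The 10 genes kept their direction with CGRP in both subsets under all 22 other settings of each comparison. In MHCII+CD11c- macrophages 8 passed, and leaving out 1 library at a time gave 8 to 9. In MNPs 9 passed, and the same omissions gave 6 to 9. Testing against a log2 change of 1 instead of 0 left 3 and 4. The interaction passed for 0 genes in every fit. Among control libraries 7 genes differed between the subsets, with 5 in DESeq2, 4 in limma-voom, 2 with 1 surrogate variable, 1 against a log2 change of 1 and 4 to 7 when a library was left out. Among CGRP libraries 2 differed, with 5 when every gene with at least 1 count was tested, 5 in limma-voom, 4 with the compared libraries alone, 4 at an adjusted p under 0.1, 1 in DESeq2, 1 with 1 surrogate variable, 1 against a log2 change of 1 and 1 to 4 when a library was left out. For that comparison the replicate block gave 4 and the explant replicate block, which sets treatment and number together, gave 5. With the replicate block MHCII+CD11c- macrophages had 10 genes past the threshold with CGRP. The causes of these shifts were not tested.

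Leaving out a library turned the sign of differences that had not passed. The interaction ran from -0.04 to 0.51 for Irgm1 and from -0.48 to 0.60 for Irgm2, and the control subset difference of Irgm2 from -0.97 to 0.09. With CGRP in MHCII+CD11c- macrophages Jak2 ran from -0.29 to 0.01 and Itgax from -0.74 to 0.42, and in MNPs Ifngr2 from -0.03 to 0.11.

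With the compared libraries alone, no separate interaction could be had, since that fit holds all 12 libraries. The explant block applies to the interaction and the subset comparisons. An adjusted p that DESeq2 left out gave no value. Depth limits Iigp1 in control MNPs and Gbp4 in control MHCII+CD11c- macrophages, where some libraries lie near 3 counts.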
